A study of Rattus norvegicus with 8 samples.

Results

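The genes described here are Txnip, 4 of its alpha-arrestin relatives (Arrdc1, Arrdc2, Arrdc3 and Arrdc4) and the genes of the Mondo glucose sensors (Mlx, Mlxip and Mlxipl). They are 8 of the 32662 genes in the deposited table, each on 1 row. They were chosen by the OGD-against-control difference of Txnip, which was the largest fall among the genes tested. The other 7 were taken by family and pathway and not by their own values, though earlier results of these data were known by then. RNA sequencing gave mRNA levels in oligodendrocyte precursor cells, the dividing glia that form myelinating oligodendrocytes, grown in primary culture from the cerebral cortex of Sprague Dawley rats 1 to 2 days old. Cells were cultured 4 to 5 days in medium with PDGF and FGF at 10 ng/ml each, 2 mM glutamine, 2% B27 and 1% antibiotic, after mixed glial culture in 20% serum. The 4 control samples stayed in normal conditions. The 4 OGD samples underwent oxygen glucose deprivation (OGD) for 6 h, which is used to model ischaemia in culture, and since oxygen and glucose were removed at once the part of each cannot be told apart. Whether the 4 samples of a group came from separate cultures is not in the labels, and p-values therefore cover sample-to-sample spread that may be technical.

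Alpha-arrestins are adaptor proteins that bring membrane proteins to ubiquitin ligases of the NEDD4 family and so to internalisation. Txnip is the member that also binds thioredoxin, and it lowers glucose uptake by drawing glucose transporters from the cell surface. Mlxip (the protein MondoA) and Mlxipl (the protein ChREBP) pair with Mlx and enter the nucleus when glucose 6-phosphate is high. There they bind paired E-boxes, called carbohydrate response elements, which are known at Txnip and Arrdc4 among other genes. In many cell types Txnip mRNA therefore follows the supply of glucose.

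Promoter windows from RefSeq (build GRCr8, 250 bases before to 50 after each start) were matched for 7 of the 8 members. Txnip was not matched. The 250 bases before the start are shown for the 3 relatives whose mRNA passed the test described further on, Arrdc4 and Arrdc3 (lower in OGD) and Mlx (higher). Each is written 5′ to 3′ on the strand of its gene, and capitals mark the E-box CACGTG.
Arrdc4 (chr1:131793426-131793675, minus strand): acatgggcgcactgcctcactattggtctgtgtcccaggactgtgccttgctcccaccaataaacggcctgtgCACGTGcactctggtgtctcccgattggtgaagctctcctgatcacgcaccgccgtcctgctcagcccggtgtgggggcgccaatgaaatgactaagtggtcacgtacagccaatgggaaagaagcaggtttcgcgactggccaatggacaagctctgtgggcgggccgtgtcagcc
Arrdc3 (chr2:12872952-12873201, plus strand): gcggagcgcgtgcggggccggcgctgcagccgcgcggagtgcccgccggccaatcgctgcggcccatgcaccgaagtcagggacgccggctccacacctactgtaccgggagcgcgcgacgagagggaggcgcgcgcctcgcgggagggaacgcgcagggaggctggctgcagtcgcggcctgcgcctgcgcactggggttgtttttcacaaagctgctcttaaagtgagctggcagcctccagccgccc
Mlx (chr10:86519636-86519885, plus strand): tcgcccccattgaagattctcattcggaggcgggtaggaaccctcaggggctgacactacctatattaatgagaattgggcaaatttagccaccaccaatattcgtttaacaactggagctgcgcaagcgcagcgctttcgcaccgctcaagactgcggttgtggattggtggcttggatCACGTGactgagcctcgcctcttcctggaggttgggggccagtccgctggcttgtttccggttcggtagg

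Counted backwards from -1 at the base before the start, the E-box lay at -177 to -172 in Arrdc4 and at -70 to -65 in Mlx. No other matched member held one. Of all 33469 windows of 300 bases, 6.42% held CACGTG, which reads the same on both strands. A pair of CACGNG motifs on 1 strand with any 5 bases between them was in 0.0359% of windows, and the carbohydrate response element consensus was in 0.0747%. Neither was found on either strand of a member's window, which says only that these letters are not in these windows. The E-box can form part of either longer motif. A match is not a measured binding site, and the 2 members with an E-box went in opposite directions.

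Values were FPKM, fragment numbers per length of the gene and per size of the library. Between control and OGD the level of Txnip (ENSRNOG00000021201) changed from that of a moderately expressed gene to near the lower limit of the data. Control samples 1 to 4 were at 7.53, 8.68, 8.12 and 8.68 FPKM and OGD samples 1 to 4 at 0.119, 0.339, 0.194 and 0.469 FPKM. Every OGD sample lay far below every control sample, and the OGD samples differed more among themselves in proportion. The means were 8.25 ± 0.549 and 0.280 ± 0.156 FPKM (SD, n = 4 each), a ratio of 29.4 that left 3.40% of the control level. On the log2(FPKM + 1) scale used for the tests the difference was -2.86 with a standard error of 0.12, which understates the ratio because the OGD level is below the added 1. With 0.1 added in place of 1 it was -4.55. No test is given for Txnip, since this difference chose the genes described.

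**Figure D1:**
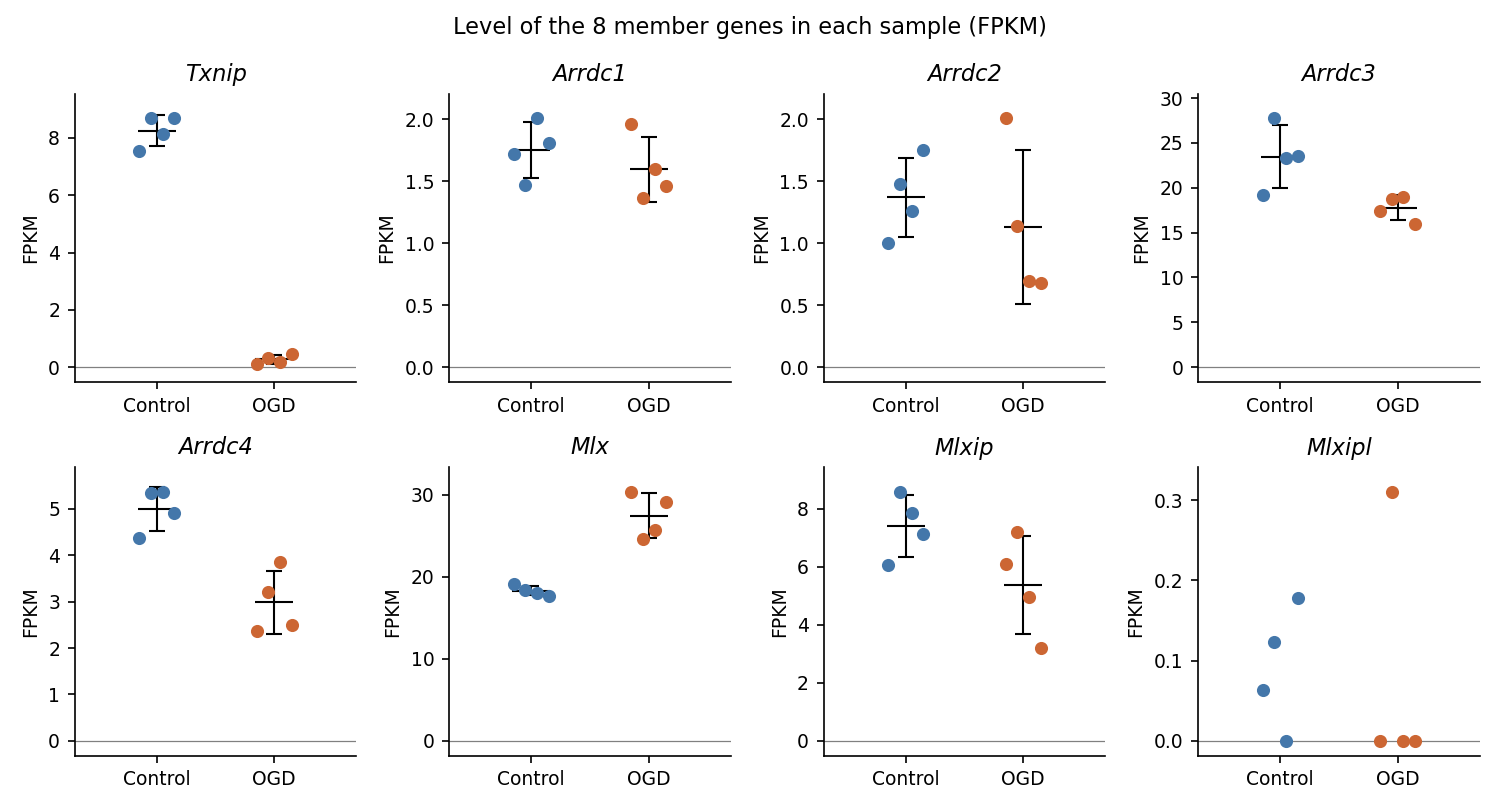
Level of the 8 genes in each sample, in FPKM, each panel with its own axis; points are samples, horizontal bars and whiskers the mean ± SD of 4 samples (omitted for Mlxipl, which is listed at 0 in several). Txnip, Arrdc3 and Arrdc4 have every OGD sample below every control sample, Mlx has every OGD sample above, and the other 4 genes overlap.

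The depth behind these values can be read in part from the steps between low values. Relative depths ran from 0.816 (OGD 2) to 1.18 (OGD 4), with control 1 set to 1. After correction for them, the 8 Txnip values stood as the whole numbers 136, 162, 163 and 167 in control 1 to 4 and 2, 5, 4 and 10 in OGD 1 to 4, each within 0.03 of a whole number. If the smallest set of whole numbers is the number of fragments, the 4 OGD values together rest on 21 fragments and the control values on 628. The true numbers could be a multiple of these. Txnip thus passed the filter on low values (at least 1 FPKM in at least 4 samples) through its control samples alone.

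Arrdc4 (ENSRNOG00000010775), the relative that shares glucose regulation with Txnip, also fell, by far less. It was at 4.36, 5.34, 5.37 and 4.92 FPKM in control 1 to 4 and, in OGD 1 to 4, at 2.37, 3.22, 3.85 and 2.50 FPKM. The groups did not overlap, OGD 3 being the closest to control. The OGD mean was 59.7% of the control mean (2.98 ± 0.688 against 5.00 ± 0.471 FPKM, SD, n = 4 each), a log2 difference of -0.60, SE 0.13 (limma, adjusted p = 0.00318).

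Arrdc3 (ENSRNOG00000045649), an adaptor for adrenergic receptors and integrins, had the highest control level of the 8 genes and fell modestly. Its values were 19.2, 27.7, 23.3 and 23.5 FPKM in control 1 to 4 and 17.4, 18.8, 19.0 and 16.0 FPKM in OGD 1 to 4. The groups were separated only narrowly, between OGD 3 and control 1. The log2 difference was -0.37, SE 0.10 (limma, adjusted p = 0.0123), and the OGD mean was 75.9% of control.

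Arrdc1 and Arrdc2 did not pass the test. Arrdc1 (ENSRNOG00000007622), which drives the budding of vesicles from the plasma membrane, was at 1.72, 1.47, 2.01 and 1.81 FPKM in control and 1.96, 1.37, 1.60 and 1.46 FPKM in OGD. The log2 difference of Arrdc1 was -0.08, SE 0.12 (limma, adjusted p = 0.592). Arrdc2 (ENSRNOG00000019009) was at 0.999, 1.48, 1.26 and 1.75 FPKM in control and, in OGD, at 2.01, 1.14, 0.699 and 0.678 FPKM, so that both the highest and the lowest sample were OGD samples. The log2 difference of Arrdc2 was -0.19, SE 0.20 (limma, adjusted p = 0.455). In the smallest whole numbers, the samples stood at 11 to 22 for Arrdc1 and 12 to 28 for Arrdc2.

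The make-up of the alpha-arrestin mRNA pool differed accordingly. The summed FPKM of Txnip and the 4 Arrdc genes lay between 33.8 and 44.7 over control samples and between 21.1 and 25.3 over OGD samples. Txnip made up 19.4% to 22.3% of that sum in control samples and 0.499%, 1.37%, 0.765% and 2.23% in OGD 1 to 4. The share of Arrdc3 ran from 56.8% to 62.0% over control samples and from 73.0% to 75.8% over OGD samples. These shares follow from the values above and were not tested.

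Mlx (ENSRNOG00000019983), the partner that both Mondo proteins need to bind DNA, rose. Control samples 1 to 4 were at 19.1, 18.4, 18.1 and 17.7 FPKM and OGD samples 1 to 4 at 30.3, 24.6, 25.7 and 29.2 FPKM. The control samples were close together and all OGD samples lay above them. The mean went from 18.3 ± 0.592 to 27.4 ± 2.75 FPKM (SD, n = 4 each), or 149.9% of control, and the log2 difference was 0.55, SE 0.08 (limma, adjusted p = 0.000221).

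Of the Mondo genes, Mlxip did not pass the test and Mlxipl could not be tested. Mlxip (ENSRNOG00000001255) was at 6.07, 8.59, 7.87 and 7.12 FPKM in control 1 to 4 and at 6.11, 7.19, 4.96 and 3.22 FPKM in OGD 1 to 4. The ranges overlapped, with OGD 4 lowest and control 1 level with OGD 1. The log2 difference of -0.43 with a standard error of 0.18 did not pass (limma, adjusted p = 0.0722), and it passed without OGD 2 (-0.57, limma adjusted p = 0.0218) and with a replicate block (limma, adjusted p = 0.0415; range over 15 alternatives 0.0218 to 0.163). The FPKM of Mlx was 2.14 to 3.15 times that of Mlxip in control samples. In OGD 1 to 4 it was 4.97, 3.42, 5.17 and 9.07 times that of Mlxip, the last with the lowest Mlxip value. Both sets of ratios follow from the values above and were not tested.

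Mlxipl (ENSRNOG00000046171), the form best known from liver and fat, was at the lower limit of the data. It was at 0.0633, 0.122 and 0.178 FPKM in control 1, 2 and 4 and at 0.310 FPKM in OGD 2, and was listed at 0 in control 3 and in OGD 1, 3 and 4. In the smallest whole numbers these values are 1, 2, 3 and 4. Mlxipl did not pass the filter and was not tested.

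Ordered by control level, the genes stood as Arrdc3, Mlx, Txnip, Mlxip, Arrdc4, Arrdc1, Arrdc2 and Mlxipl. The control samples of Txnip overlapped those of Mlxip, and those of Arrdc1 overlapped those of Arrdc2, while the other neighbours were separate. In OGD samples Mlx stood first and Arrdc3 second, without overlap, and Txnip was last but one. The OGD range of Txnip overlapped that of Mlxipl, as did the range of Mlxip with that of Arrdc4 and of Arrdc1 with that of Arrdc2.

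Of the 7 relatives taken by family, 6 passed the filter, and of these 3 were called, Mlx higher and Arrdc3 and Arrdc4 lower. Calls were as frequent in the whole table, where 5519 of 11149 genes tested (49.5%) passed, 22.7% higher and 26.8% lower in OGD. The groups did not overlap with OGD above for 20.7% of genes tested, against 1 of the 6 relatives, and with OGD below for 24.1%, against 2 of the 6. The median log2 difference of the 6 was -0.28, beside -0.04 over all genes tested. The share called is thus that of the table at large. All 6 lay between the 5th percentile (-0.77) and the 95th percentile (0.72) of the table. The position of Txnip below the 1st percentile (-1.21) was fixed by how it was chosen.

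**Figure D2:**
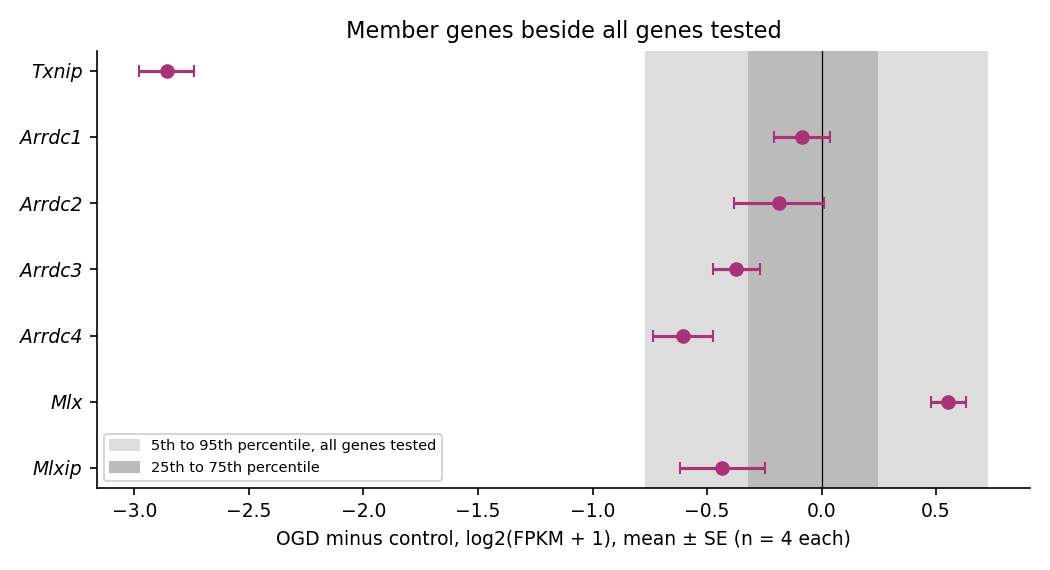
Difference OGD minus control on the log2(FPKM + 1) scale (x axis) for the 7 of the 8 genes that passed the filter; points and bars are the estimate ± SE from limma with 4 samples in each group, and grey bands span the 25th to 75th and 5th to 95th percentiles of all 11149 genes tested. Txnip at -2.86 lies outside the bands, and the other 6 genes lie between -0.60 and 0.55.

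Markers of cell types were counted in the same libraries, where 22.7% of all genes tested were called higher and 26.8% lower in OGD. Of 12 microglial markers matched and tested, 11 fell and 0 rose, and their summed level ran from 259 to 404 FPKM over control samples and from 95.01 to 162.2 FPKM over OGD samples, with none at 0 in all samples. Of these 12, Cx3cr1 and Ptprc passed the filter through control samples alone. Of 8 precursor and oligodendrocyte lineage markers, 6 fell. Olig2 (mean 297.2 FPKM in control and 285.6 FPKM in OGD) and Sox10 (233.7 and 245.6 FPKM) did not pass. The sum of the 8 ran from 2259 to 2379 FPKM over control samples and from 1455 to 1651 FPKM over OGD samples. Its largest part was Olig1 (mean 794.5 FPKM in control and 356.5 FPKM in OGD). The Gpr17 call was lost under 8 of 15 alternatives and that of Ptprz1 under 1. Of 7 astrocyte markers 5 were tested and 1 fell, Gfap, to 22.2% of control. Gfap also passed the filter through control samples alone. The sums of the 7 overlapped (113 to 116 FPKM in control, 112 to 118 FPKM in OGD). They rested mostly on Slc1a3 (mean 63.4 FPKM in control and 60.1 FPKM in OGD) and Sox9 (37.05 and 44.05 FPKM). Of 8 neuronal markers 2 rose (Tubb3 and Syt1) and 3 fell (Snap25, whose call was lost under 8 of 15 alternatives, Syn1 and Nefl). The neuronal calls, 5 of 8, were near the 49.5% over all genes tested, and the astrocyte call, 1 of 5, was below it. The neuronal sums also overlapped (279 to 343 FPKM in control, 270 to 348 FPKM in OGD). They rested mostly on Map2 (mean 224.9 FPKM in control and 196.7 FPKM in OGD). The 7 vascular and stromal markers matched summed to at most 0.314 FPKM. The part of these shifts in the differences of Txnip, Arrdc3, Arrdc4 and Mlx was not tested. In such bulk samples fewer cells of a type and less RNA per cell cannot be told apart.

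The genes whose difference was most like that of Txnip were found by the distance, over the 8 samples, between values of log2(FPKM + 1) taken relative to each gene's own control mean. The nearest were Mgea5 (distance 0.766), the enzyme that removes O-GlcNAc, then Fam212b (1.36), Lbh (1.47), Nrarp (1.48), a feedback inhibitor of Notch signalling, and Klf10 (1.84), a zinc finger repressor. None kept as little of its control level as Txnip did: the OGD mean was 13.7% of control for Mgea5, 19.9% for Fam212b, 20.1% for Lbh, 15.6% for Nrarp and 22.2% for Klf10. Since Txnip had the largest fall, its neighbours by this measure are other large falls.

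**Figure D3:**
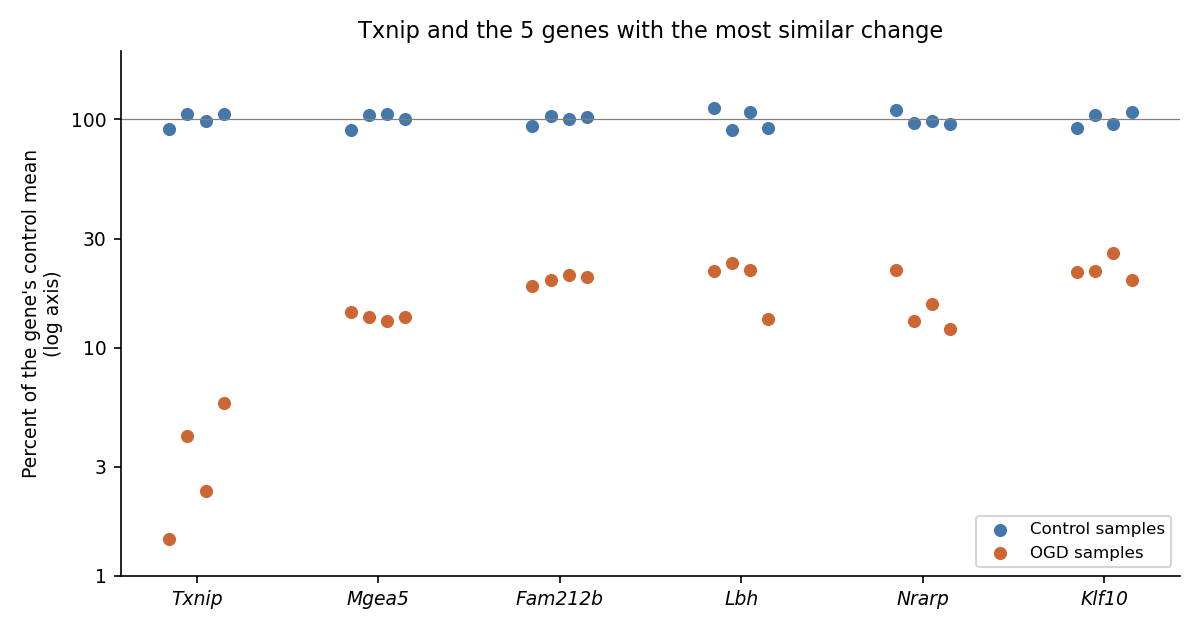
Level in each sample as a percentage of the gene's own control mean (log axis) for Txnip and the 5 genes nearest to it by distance; blue points are the 4 control and orange points the 4 OGD samples. The OGD samples of Txnip lie below those of all 5 other genes, whose OGD means are 13.7% to 22.2% of control.

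Beside Txnip and Arrdc4, which fell and are not counted here, known targets of the Mondo proteins did not share one direction. Of 20 genes listed, all matched, 10 passed the filter, 4 rose (Acly, Scd, Bhlhe40 and Bhlhe41), 2 fell (Acaca and Klf10) and 4 did not pass, with a median log2 difference of 0.03. With no filter 4 rose and 4 fell of 17, beside 5535 of 16909 genes called in all. The 6 of 10 called are near the 49.5% over all genes tested, and so are the counts of the Max network, the Txnip partners and the glucose 6-phosphate list given further on. Klf10 fell from 22.3 ± 1.72 to 4.95 ± 0.587 FPKM (limma, adjusted p = 1.13e-07), its samples ranging from 20.4 to 24.1 FPKM in control and 4.42 to 5.79 FPKM in OGD. Scd, the desaturase that makes monounsaturated fatty acids, rose from 8.66 ± 0.665 to 20.6 ± 0.896 FPKM (limma, adjusted p = 1.32e-06).

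Bhlhe40, a repressor that low oxygen also induces, rose from 1.85 ± 0.291 to 42.2 ± 7.26 FPKM (limma, adjusted p = 1.24e-08). Fasn, the fatty acid synthase, whose control level was close to that of Acly (66.3 ± 3.10 FPKM), was at 66.5 ± 6.90 and 68.0 ± 6.13 FPKM and did not pass (limma, adjusted p = 0.788). The call on Acaca, the acetyl-CoA carboxylase of fat synthesis, was lost without control 2 or 3 or OGD 3 (limma, adjusted p over 15 alternatives 0.00848 to 0.0609). Among the 10 genes below the filter was Gpd1, a glycerol phosphate enzyme chosen here after its values were seen. It was at 0.478 to 1.27 FPKM in control and 0.139 to 0.520 FPKM in OGD, and these ranges overlapped. Gpd1 does not stand for the other genes below the filter, several of which were listed at 0 in all samples.

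Mlx belongs to the wider network of Max, in which Myc proteins and the Mxd and Mxi repressors compete for E-boxes. Of 10 genes listed, 9 matched and passed the filter, 4 rose (Max, Mxi1, Myc and Mycn), 1 fell (Mxd4) and 4 did not pass. The median log2 difference was 0.16. Mxi1 rose from 19.3 ± 1.75 to 46.6 ± 1.47 FPKM (limma, adjusted p = 7.52e-07), Mycn from 8.06 ± 0.368 to 21.7 ± 1.94 FPKM (limma, adjusted p = 7.63e-07) and Myc from 61.8 ± 4.99 to 144.0 ± 18.4 FPKM (limma, adjusted p = 4.57e-06). Max, the obligate partner of Myc, was the highest of the list in control and rose from 89.0 ± 8.17 to 114.9 ± 12.8 FPKM (limma, adjusted p = 0.00665). Mxd4, a repressor of the same network, fell from 58.3 ± 2.20 to 45.4 ± 2.60 FPKM (limma, adjusted p = 0.000866). The repressors Mnt and Mxd1, named here after their values were seen, did not pass: Mnt was at 7.29 ± 0.750 and 7.33 ± 0.745 FPKM and Mxd1 at 7.50 ± 0.388 and 8.07 ± 0.632 FPKM (limma, adjusted p = 0.956 and 0.387).

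The list of Txnip partners held genes of proteins that bind Txnip, act on it or are acted on by it, and of the thioredoxin reductases. Of these, 14 were listed and matched, 12 passed the filter, 3 rose (Ddit4, Slc2a1 and Prkaa1), 4 fell (Txn2, Map3k5, Cops5 and Usp5) and 5 did not pass. The median log2 difference was -0.02. Slc2a1, the glucose transporter that Txnip draws from the surface, went from 4.63 to 6.48 FPKM over control samples to 40.7 to 51.6 FPKM over OGD samples (limma, adjusted p = 2.31e-08). Prkaa1, a catalytic subunit of the energy-sensing kinase AMPK, rose from 6.34 ± 0.419 to 9.45 ± 0.419 FPKM (limma, adjusted p = 0.000434). Ddit4, an inhibitor of the growth kinase mTOR, rose from 51.8 ± 5.50 to 107.2 ± 10.6 FPKM (limma, adjusted p = 9.22e-06).

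Of the thioredoxins, Txn2 passed the test and Txn1 did not. Txn1, the cytosolic thioredoxin, was at 114.1 ± 19.6 and 119.1 ± 24.5 FPKM and did not pass (limma, adjusted p = 0.784). Txn2, the mitochondrial form, fell from 61.2 ± 3.40 to 41.9 ± 6.15 FPKM (limma, adjusted p = 0.000863), and Map3k5, a stress kinase that thioredoxin holds inactive, fell from 3.26 ± 0.443 to 1.83 ± 0.171 FPKM (limma, adjusted p = 0.00172). Whether Txn1 and Txn2 differed from each other in their change was not tested. The call on Cops5 was lost without control 4 or OGD 3 (limma, adjusted p over 15 alternatives 0.000841 to 0.0527). Nlrp3, an inflammasome gene typical of microglia and chosen here after its values were seen, did not pass the filter and was at 0.583 to 0.913 FPKM in control and 0.106 to 0.345 FPKM in OGD.

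Of the ubiquitin ligases of the NEDD4 family, which alpha-arrestins recruit, 9 were listed and matched and 8 passed the filter. Of these 4 rose (Nedd4l, Itch, Wwp1 and Smurf2), 0 fell and 4 did not pass, with a median log2 difference of 0.16. The 4 of 8 called are near the 49.5% over all genes tested (22.7% higher), and 12 of 15 alternatives called 3. Itch, a ligase that marks Txnip for degradation, was at 12.3, 15.4, 16.0 and 15.1 FPKM in control and 23.8, 25.9, 24.0 and 20.5 FPKM in OGD. Its 4 OGD samples were all above control, with a log2 difference of 0.65 and a standard error of 0.10 (limma, adjusted p = 0.000314). Nedd4l rose from 6.92 ± 0.519 to 10.1 ± 0.144 FPKM (limma, adjusted p = 0.000485) and Smurf2 from 10.7 ± 0.282 to 13.7 ± 0.503 FPKM (limma, adjusted p = 0.00216). Nedd4 itself, by far the most abundant, was at 239.1 ± 20.0 and 244.0 ± 3.28 FPKM and did not pass (limma, adjusted p = 0.715). Wwp1 passed narrowly (limma, adjusted p = 0.0497) and did not pass under 12 of 15 alternatives, each of control 1, control 4 and the 4 OGD samples left out among them (range 0.0256 to 0.120).

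None of the other genes with an arrestin fold was called. Of 9 listed and matched, 6 passed the filter, 0 were called by limma and 0 had an unadjusted p under 0.05, beside 49.5% called over all genes tested. The median log2 difference was -0.05, and whether the list differs from other genes was not tested. Vps26a, a subunit of the retromer sorting complex and the highest in control, was at 37.7 ± 2.67 and 35.8 ± 3.25 FPKM (limma, adjusted p = 0.462). Arrb1, a beta-arrestin of receptor desensitisation, was at 6.09 ± 1.64 and 5.05 ± 0.991 FPKM (limma, adjusted p = 0.295). Arrb2, the other beta-arrestin, named here after its values were seen, was at 18.7 ± 1.04 and 20.1 ± 1.85 FPKM (limma, adjusted p = 0.342). Rgp1, which acts in membrane traffic at the Golgi, was at 12.8 ± 1.09 and 10.8 ± 1.93 FPKM (limma, adjusted p = 0.138). Dscr3, a relative of Vps26a, was at 14.3 ± 2.18 and 16.6 ± 1.12 FPKM (limma, adjusted p = 0.116), and it passed without control 1 (limma, adjusted p = 0.0225; range over 15 alternatives 0.0225 to 0.296). The alpha-arrestin Arrdc5 was listed at 0 in all samples but control 3 (0.151 FPKM).

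Genes that set glucose 6-phosphate, the metabolite that the Mondo proteins sense, moved both ways. Of 11 listed, 10 matched and 8 passed the filter, 2 rose (Hk2 and Gpi), 2 fell (Adpgk among them) and 4 did not pass, with a median log2 difference of 0.11. Hk2, the inducible hexokinase that makes glucose 6-phosphate, rose from 2.62 ± 0.405 to 22.1 ± 3.76 FPKM (limma, adjusted p = 1.23e-07). Gpi, the isomerase that passes it into glycolysis, rose from 96.1 ± 5.20 to 134.6 ± 7.97 FPKM (limma, adjusted p = 0.000175). The call on Adpgk was lost without control 3 or OGD 3 (limma, adjusted p over 15 alternatives 0.0107 to 0.0653).

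**Figure D4:**
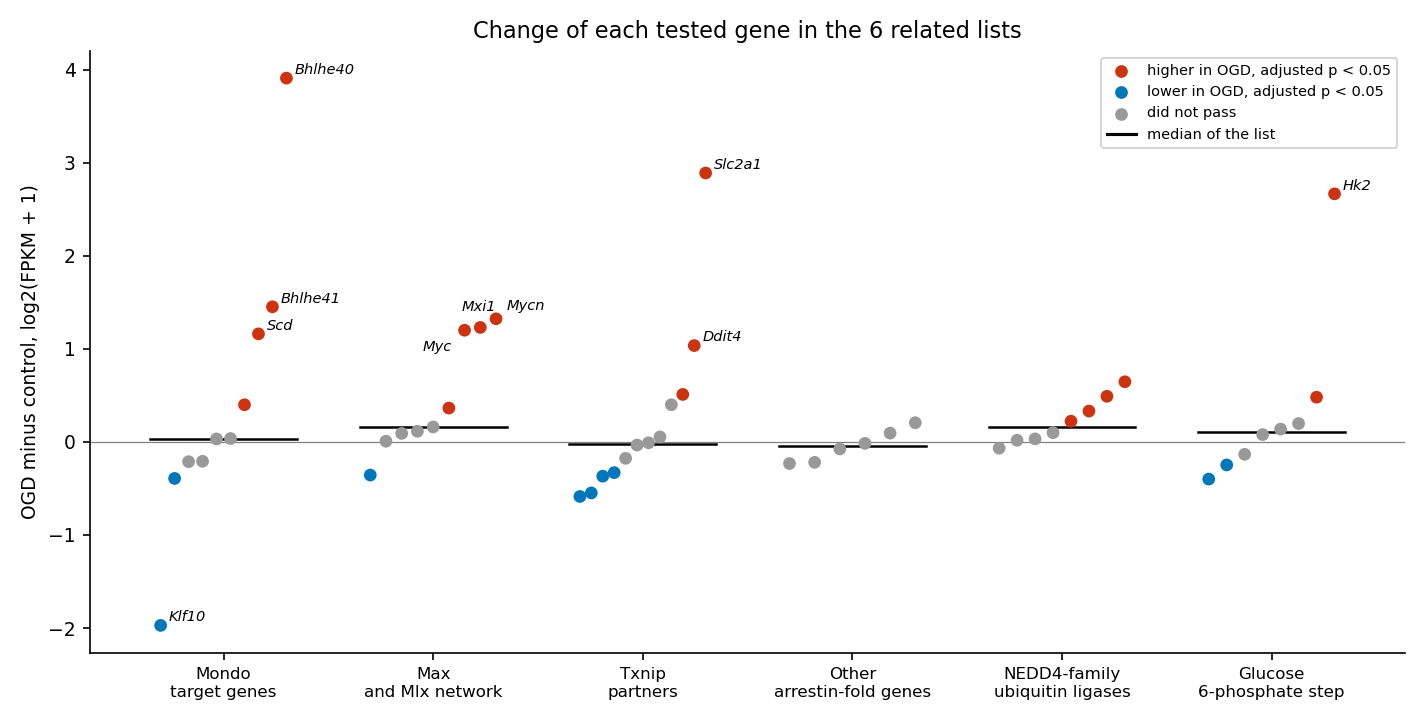
Difference OGD minus control on the log2(FPKM + 1) scale (y axis) for every tested gene of 6 related lists (x axis); red and blue points passed an adjusted p of 0.05 in limma, higher or lower in OGD, grey points did not, and black bars mark the list medians, from -0.05 to 0.16. The list of other arrestin-fold genes has 0 calls among 6 tested, and the ubiquitin ligases have 4 higher and 0 lower among 8. Over all genes tested 49.5% were called, 22.7% higher in OGD. The call on the ligase Wwp1 was lost under 12 of 15 alternatives. Whether the lists differ was not tested.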

How the data were processed

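Libraries from column-purified RNA were strand-specific, per the labels' protocols. The authors deposited FPKM per gene for 4 control and 4 OGD samples, per the file headers. Trimmomatic, FastQC and the build rn6 (Rnor_6.0) are named in the submitters' processing notes. Not given in the sources used here: the aligner, the FPKM program and whether it used strand, so overlapping genes are uncertain, and fragment totals are unknown.

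Genes reaching 1 FPKM in 4 or more samples were tested on log2(FPKM + 1) with limma 3.58.1 in R 4.3.3 (trended, two-sided, group only), adjusted by Benjamini-Hochberg over all 11149 genes at a threshold of 0.05. FPKM are relative to the library total, so all changes are relative. The procedure was tested on simulated data with normal noise and far fewer changed genes than were called here. Members and lists were chosen with earlier results of these data known. Of 73 list entries, 71 matched by symbol. Named genes were the 8 members, per list the 3 with the smallest adjusted p and the highest in control, and the 5 nearest to Txnip; other called list genes are named beside their counts, and Mnt, Mxd1, Arrb2, Gpd1, Nlrp3 and Arrdc5 were added after their values were seen. Relative depth came from genes at or below 0.5 FPKM in both of 2 samples, matched within 0.01 on the log2 scale, and whole numbers within 0.1 were accepted. Alternatives were 2 other scalings, 2 other filters, a pseudocount of 0.1, limma without trend, a replicate block and each sample left out. No 2 samples held identical values. The values of 1 gene that the rule names are not reported here.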

Additional observations from a re-analysis of the deposited data

Results flagged for a closer look

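In 3 of 96 groups of 4 samples, 1 sample stood apart from the other 3 by Dixon's criterion, where chance gives about 4.8. The groups were those of the 8 members and of 40 other named genes. The cell type markers, Gpd1, Nlrp3 and Arrdc5 were not among them. Mlxipl was at 0.310 FPKM in OGD 2 and listed at 0 in the other OGD samples. Control 3 of Arrb2 was at 17.1 FPKM, below the other control samples, and OGD 1 of Wwp1 was at 25.6 FPKM, above the other OGD samples. Chance flags about 1 in 20 groups.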

How the results depend on the processing

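Under 15 alternatives the calls on Arrdc3 and Mlx held, and that on Arrdc4 held under 14 (it did not pass a filter of 5 FPKM). With samples left out in turn, 3 to 4 of the 6 relatives were called, and 4716 to 5450 genes in all. Mondo targets gave 5 to 6 calls, the Max network 5 to 5, Txnip partners 6 to 8, ubiquitin ligases 3 to 4, the glucose 6-phosphate list 3 to 5, and other arrestin-fold genes 0 to 1, the 1 being Dscr3 without control 1. The log2 difference of Txnip was -4.55 with a pseudocount of 0.1, by construction of the scale, and -2.93 to -2.80 without each OGD sample. Without a control sample Txnip did not pass the filter. Among falls it ranked 1 with the main filter and 4 with no filter. The log2 difference of Arrdc1 was 0.018 after quantile normalization. Mlxip ran from -0.57 (without OGD 2) to -0.25 with samples left out.

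The same replicate numbers gave no clear sign of pairing: correlations of same-numbered deviations were -0.222, 0.163, 0.0105 and 0.0902, and 1 of 4 control and 1 of 4 OGD samples correlated best with its own number. With 4 samples in each group this cannot show that the samples were not paired. With a replicate block 5509 genes were called, and Mlxip passed at a log2 difference of -0.43 (limma, adjusted p = 0.0415).

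Of 599 alternatives for 40 other named genes, 567 kept direction and call. Those that turned direction were small and did not pass: Fasn (-0.0001 with median-centring, -0.027 to 0.098 with samples left out), Txn1 (-0.069 to 0.158), Nedd4 (-0.015 to 0.083) and Mnt (-0.0047 with quantile normalization, -0.025 with median-centring, -0.042 to 0.069 with samples left out). The cause was not tested. Txnip in OGD and Mlxipl stood at 10 or fewer per sample in the smallest whole numbers; what depth alone limits was not tested.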
